A study of Mus musculus with 23 samples.

Results

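The comparison set 3 arrays of mouse embryonic fibroblasts with p53 changed in its second activation domain, titled LSL-53,54+Cre, against 6 arrays with wild-type p53, titled LSL-WT+Cre (3) and WT+Cre (3). These 9 arrays were chosen by their titles out of 23 in the series. It asked which genes lay above the wild-type level in the second-domain mutant and which had lost it. The 53,54 allele carries W53Q and F54S (positions counted from the first residue of p53) and, like the LSL-WT allele, is a knock-in behind a transcriptional stop cassette (LSL) that Cre recombinase removes. The WT arrays are titled as p53 wild type without the cassette, although the genotype label of WT replicate 3 is that of LSL-WT. All 3 kinds of cells received Cre from an adenovirus, and all carried retroviral H-Ras V12, an oncogene that drives primary fibroblasts into senescence. Of the 53,54 arrays 1 came from the 129 background and 2 from a mixed one, and of the wild-type arrays 3 and 3 did. The share of cells in which Cre removed the cassette is not analysed here, nor are the p53 and H-Ras transcripts. The labels do not say whether replicates were separate embryos or cultures, so the spread between samples may be technical. The p-values measure that spread within groups, pooled over all 23 arrays unless arrays are left out.

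p53 is a transcription factor that binds DNA as a tetramer and halts the cell cycle or starts apoptosis after damage or oncogene signalling. Its amino terminus holds a pair of activation domains that contact coactivators and the negative regulator Mdm2. Residues 25 and 26 lie in the first domain, and residues 53 and 54 in the second. The 25,26 mutant (L25Q and W26S, 5 arrays), the QM mutant with both pairs changed (3 arrays) and cells without p53 (null, 6 arrays) are given as levels for reference.

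Levels are log2 of a normalised array intensity, 1 probe set standing for each gene, and differences are 53,54 minus wild type on that scale, with the standard error of the fit. Tests are limma's moderated two-sided tests with the title number of the arrays as a block, adjusted by Benjamini-Hochberg over 15266 genes, and a gene is called at an adjusted p under 0.05. Levels of different genes rest on different probe sets and are not compared with each other. The median intensity per array was 62.32 to 63.95 in 53,54 and 59.67 to 63.89 in wild type. The level of Xist, which the inactive X chromosome transcribes, was above 8 (log2) on 1 of 3 and 4 of 6 arrays. The cells carried the mesenchymal transcripts of fibroblasts: the 15 fibroblast markers averaged 12.16 to 12.41 in 53,54 and 11.69 to 12.53 in wild type, and none was called. Among markers of epithelial cells, macrophages, endothelium, muscle, neurons and glia, and fat and cartilage, none of the 62 tested was called either when all arrays were used. The wild-type arrays of title number 2 stood apart in the mean of 38 mitosis genes, LSL-WT replicate 2 at 8.17 and WT replicate 2 at 8.60 against 9.52 to 9.65 in the other 4. The counts of calls and the calls on listed genes are also given without LSL-WT replicate 2.

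In the fit of all arrays with the block, few genes were called between the second-domain mutant and wild type, and most calls were upward. A gene without a call is not thereby shown to be unchanged. In 53,54, 145 genes were higher than in wild type (0.95% of those tested) and 13 were lower (0.0852%), or 158 together (1.03%). The rises ran from 0.30 to 2.04, with a median of 0.77, and 44 of them were at least 2-fold (0.288%). The falls ran from 0.35 to 2.04 in size, with a median of 0.59, and 1 was at least 2-fold (0.00655%). In 74 of the rises (0.485%) and 8 of the falls (0.0524%) the 3 mutant levels did not overlap the 6 wild-type levels. Without regard to the test, 210 genes (1.38%) lay wholly above and 185 (1.21%) wholly below. Of the called rises 70 had several probe sets, which all had the same sign in 58 of them. For the falls this held in 8 of 9. Of the rises 2 (Il15 and C030034I22Rik) and of the falls 1 (Hoatz) passed the filter on low values only through the group in which they were high.

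**Figure D1:**
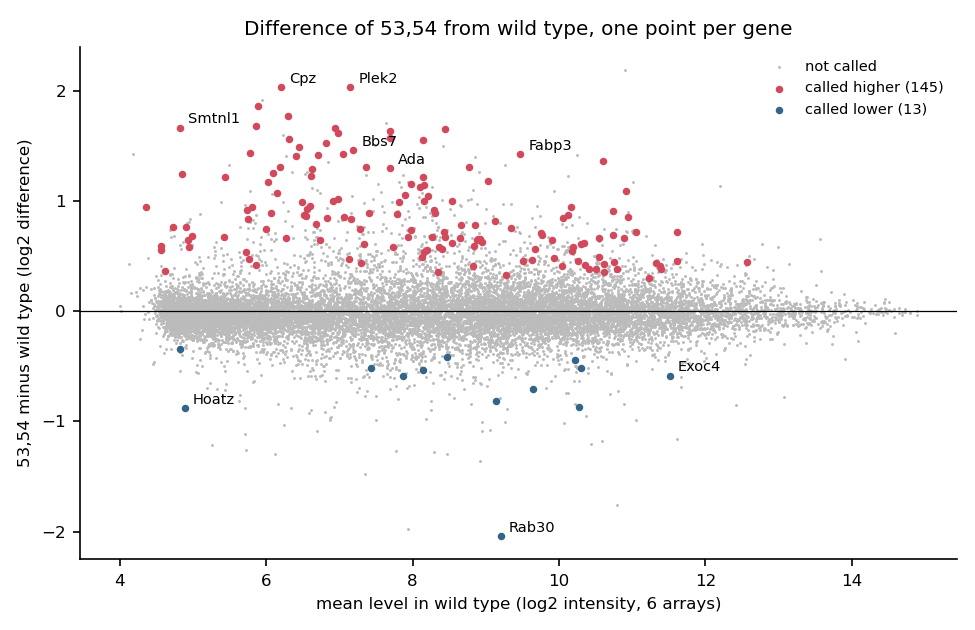
Each point is 1 of the 15266 genes tested; the x axis is the mean wild-type level (log2 intensity, 6 arrays) and the y axis the difference of 53,54 from wild type (log2). The 145 called rises (red) outnumber the 13 called falls (blue), and Rab30 is the only called fall with a size above 1.

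These counts moved with the arrays and the model. Without the title number as a block, 49 genes were called higher (0.321%) and 7 lower (0.0459%), of which 46 and 6 were among those above. Leaving out 53,54 replicate 2 left 19 and 3 calls, and leaving out replicate 3 left 15 and 2. Without replicate 4 there were 115 and 20. Without LSL-WT replicate 2 there were 354 (2.32%) and 74 (0.485%), and without WT replicate 2 there were 88 and 11. Against the LSL-WT arrays alone, which share the cassette with 53,54, 31 genes were higher (0.203%) and 7 lower (0.0459%). Against the WT arrays alone 665 were higher (4.36%) and 679 lower (4.45%). Those 31 and 7 shared 26 and 4 genes with the calls against all wild-type arrays, and the 665 and 679 shared 144 and 13. With the 9 compared arrays alone and no block, 3 genes were higher (Bbs7, Ppp1r36 and Smtnl1) and 0 were lower, with 821 genes at an unadjusted limma p under 0.05. With the block these 9 arrays gave 0 calls in either direction, with 924 such genes. In that fit 53,54 replicate 4 has no partner of its number and drops out.

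The promoters of 4 genes are shown, because Smtnl1 and Bbs7 were the most separated rises and Arhgef4 and Exoc4 were a rise and a fall with a p53 half-site near the start. A half-site is the short palindrome that p53 binds in tandem, here taken as an exact match to its consensus, which reads the same on both strands. The sequences are the 250 bases before the RefSeq start of each gene (GRCm38.p6), written 5′ to 3′ on the gene's strand, with the half-site in capitals. Smtnl1 lies at chr2:84822653-84822902, minus strand, and Bbs7 at chr3:36613390-36613639, minus strand. Arhgef4 lies at chr1:34677932-34678181, plus strand, and Exoc4 at chr6:33248878-33249127, plus strand.
Smtnl1: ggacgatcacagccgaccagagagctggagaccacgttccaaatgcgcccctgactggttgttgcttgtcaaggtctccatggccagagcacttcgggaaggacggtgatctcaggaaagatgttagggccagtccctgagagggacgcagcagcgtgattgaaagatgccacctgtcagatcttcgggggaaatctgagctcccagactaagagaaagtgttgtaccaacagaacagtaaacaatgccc
Bbs7: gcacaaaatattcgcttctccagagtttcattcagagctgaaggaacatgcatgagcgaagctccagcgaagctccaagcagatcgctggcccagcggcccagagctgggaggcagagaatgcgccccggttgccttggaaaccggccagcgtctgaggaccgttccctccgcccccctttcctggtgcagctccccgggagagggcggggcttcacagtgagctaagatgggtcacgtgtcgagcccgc
Arhgef4: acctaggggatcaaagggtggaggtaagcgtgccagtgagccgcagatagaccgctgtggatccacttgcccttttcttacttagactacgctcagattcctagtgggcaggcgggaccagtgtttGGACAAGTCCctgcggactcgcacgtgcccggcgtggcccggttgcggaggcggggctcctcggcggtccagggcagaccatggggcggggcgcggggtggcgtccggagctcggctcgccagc
Exoc4: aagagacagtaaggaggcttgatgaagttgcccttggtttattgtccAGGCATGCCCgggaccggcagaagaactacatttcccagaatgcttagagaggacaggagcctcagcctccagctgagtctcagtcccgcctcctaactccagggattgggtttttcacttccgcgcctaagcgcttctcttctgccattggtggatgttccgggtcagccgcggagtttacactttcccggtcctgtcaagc
The Arhgef4 match began 124 bases before the start and the Exoc4 match 203 bases before it. The Smtnl1 and Bbs7 windows held none, which says only that these letters are not in them. Of the 145 called rises 123 had a promoter in the table, and 12 of these (9.76%) held a half-site. Of the 13 falls 10 had one, and 3 (30%) held a half-site. Across all 27025 genes with a RefSeq promoter given, 2216 (8.2%) did. That background is not limited to the genes tested on the arrays. The 3 of 10 is a small count, and the shares were not compared by a test.

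The most clearly separated rises were Smtnl1, Ppp1r36, Bbs7 and Ada, each called in every fit that left out 1 of the 9 arrays. Smtnl1, a regulator of smooth and skeletal muscle contraction, had levels of 6.57, 6.81 and 6.10 in 53,54. In wild type it ranged from 4.59 to 5.13 (median 4.79), close to the filter level of 4.79. All 20 other arrays lay below the 3 mutant arrays, and the difference was 1.67 ± 0.16 (limma, adjusted p = 3.15e-05). Bbs7, a subunit of the BBSome that carries membrane proteins in cilia, lay at 8.58, 8.55 and 8.65 in 53,54 and between 6.82 and 7.45 (median 7.21) in wild type. Its null levels, 6.87 to 7.45, and its 25,26 levels, 6.77 to 7.10, were as low. The difference was 1.46 ± 0.16 (limma, adjusted p = 0.000139), and it was 1.47 against LSL-WT alone and 1.44 against WT alone. With the probe sets of the gene averaged, the difference was smaller, at 0.74 (limma, adjusted p = 0.00124). Ada, adenosine deaminase, which clears adenosine and deoxyadenosine, lay at 8.86, 8.98 and 9.11 against 7.30 to 8.05 (median 7.66). It was 1.30 ± 0.17 higher (limma, adjusted p = 0.00112). Ppp1r36, a regulatory subunit of protein phosphatase 1, lay at 6.34, 5.82 and 5.94 against 4.71 to 5.04 (median 4.84) in wild type, also close to the filter level. Its difference was 1.24 ± 0.10 (limma, adjusted p = 6.41e-06); it falls outside the 15 largest non-overlapping rises and was named after its values were seen.

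**Figure D2:**
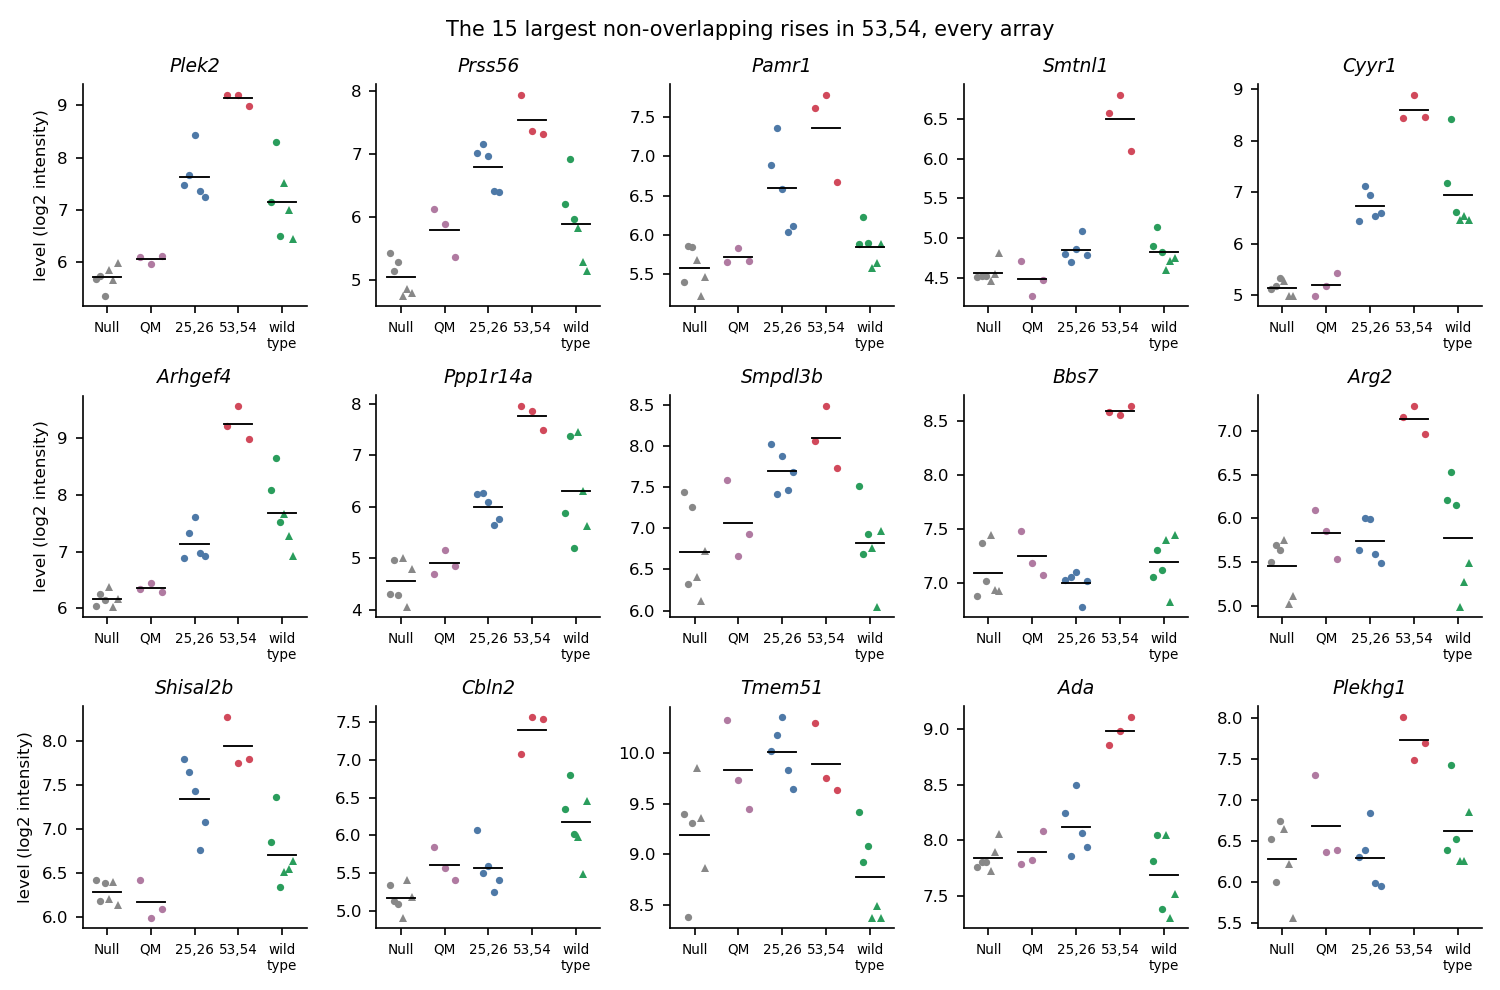
Each panel shows 1 of the 15 largest called rises whose groups did not overlap, with the level (log2 intensity) of every array by p53 status; bars are means, and triangles are the WT+Cre and Null+Cre arrays. In Bbs7, Smtnl1 and Ada the 3 mutant arrays stand above all 20 others, while in Tmem51 they lie among the QM and 25,26 arrays.

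Among the 15 largest non-overlapping rises, the groups nearly met in Cyyr1, Ppp1r14a and Plekhg1 and lay further apart in Plek2 and Arhgef4. Plek2, a membrane-bound protein of actin rearrangement, lay at 9.21, 9.21 and 8.99 in 53,54 against 6.43 to 8.30 (median 7.07) in wild type. It was 2.03 ± 0.32 higher (limma, adjusted p = 0.0053), with adjusted p = 0.0508 without 53,54 replicate 2 and 0.0956 without replicate 3. Arhgef4, a guanine nucleotide exchange factor, lay at 9.22, 9.58 and 8.98 against 6.92 to 8.66 (median 7.59). The difference was 1.63 ± 0.28 (limma, adjusted p = 0.00905), with adjusted p = 0.0502 and 0.151 without the same arrays. With the probe sets of Arhgef4 averaged it was 0.87 (limma, adjusted p = 0.0114). In both genes the nearest wild-type array was LSL-WT replicate 2, at 8.30 and 8.66. Ppp1r14a, an inhibitor of myosin phosphatase, lay at 7.96, 7.85 and 7.49 against 5.20 to 7.45 (median 6.09). Its difference was 1.56 ± 0.35 (limma, adjusted p = 0.0406) and it was not called without the block (adjusted p = 0.102). It kept the call in 2 of 9 fits with an array left out, those without LSL-WT replicate 2 and WT replicate 1. Plekhg1, a further exchange factor, lay at 8.02, 7.50 and 7.70 against 6.26 to 7.43 (median 6.46). It was 1.29 ± 0.30 higher (limma, adjusted p = 0.0431), with adjusted p = 0.102 without the block. Of the 9 fits with an array left out, only that without LSL-WT replicate 2 kept the call. With the probe sets of Plekhg1 averaged the difference was 0.68 and not called (limma, adjusted p = 0.073). Against LSL-WT alone limma's adjusted p was 0.238 for Plekhg1, and 0.0509, 0.0502 and 0.0509 for Plek2, Arhgef4 and Ppp1r14a.

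Prss56, Pamr1, Smpdl3b and Cbln2 encode secreted or cell-surface proteins, a grouping made after the values were seen and not tested. Prss56, a serine protease, lay at 7.94, 7.36 and 7.31 in 53,54 and between 5.15 and 6.91 (median 5.89) in wild type. It was 1.86 ± 0.29 higher (limma, adjusted p = 0.00496), or 1.37 against LSL-WT alone and 2.36 against WT alone. Without 53,54 replicate 2 its adjusted p was 0.059. Pamr1, a secreted protein with a peptidase domain, lay at 7.61, 7.78 and 6.68 against 5.58 to 6.23 (median 5.88). The difference was 1.68 ± 0.19 (limma, adjusted p = 0.000277) and kept the call in all 9 fits. The 25,26 arrays reached 7.35 and so overlapped the mutant arrays. Smpdl3b, a membrane-anchored phosphodiesterase, lay at 8.05, 8.49 and 7.73 against 6.04 to 7.51 (median 6.85). It was 1.52 ± 0.23 higher (limma, adjusted p = 0.00449), with adjusted p = 0.0619 without the block and 0.0576 and 0.0766 without 53,54 replicates 2 and 3. Cbln2, a secreted organiser of synapses, lay at 7.08, 7.57 and 7.54 against 5.49 to 6.80 (median 6.18). Its difference was 1.31 ± 0.23 (limma, adjusted p = 0.00968), with adjusted p = 0.134 without 53,54 replicate 3 and 0.0507 against LSL-WT alone.

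The remaining 4 of the 15 were Cyyr1, Arg2, Shisal2b and Tmem51. Cyyr1, which encodes a short membrane protein, lay at 8.45, 8.90 and 8.46 against 6.46 to 8.42 (median 6.58), and LSL-WT replicate 2 alone gave the 8.42. It was 1.66 ± 0.33 higher (limma, adjusted p = 0.0159), with adjusted p = 0.059 and 0.244 without 53,54 replicates 2 and 3. The adjusted p was 0.161 against LSL-WT alone. Averaging the probe sets of Cyyr1 gave 0.92 (limma, adjusted p = 0.0386). Arg2, the mitochondrial arginase, lay at 7.16, 7.29 and 6.96 against 4.99 to 6.53 (median 5.82). It was 1.44 ± 0.28 higher (limma, adjusted p = 0.0159), 0.94 against LSL-WT alone and 1.96 against WT alone. Leaving out 53,54 replicate 2, 3 or 4 gave adjusted p = 0.0817, 0.21 and 0.0502. Shisal2b lay at 8.27, 7.74 and 7.79 against 6.34 to 7.36 (median 6.58), was 1.41 ± 0.19 higher (limma, adjusted p = 0.00152) and kept the call in all 9 fits. Tmem51 lay at 10.30, 9.75 and 9.63 against 8.37 to 9.42 (median 8.71). It was 1.30 ± 0.30 higher (limma, adjusted p = 0.0425), and the call held in 3 of 9 fits. However, the adjusted p of Tmem51 was 0.0967 without the block, 0.083 with strain as a covariate and 0.309 against LSL-WT alone. Its QM levels, 9.45 to 10.33, and 25,26 levels, 9.65 to 10.36, were as high as those of 53,54.

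Most of these rises put the second-domain mutant beyond the wild-type level on the side away from the null cells. In 13 of the 15 the wild-type mean was above the null mean, against 7681 of the 15266 genes tested, and in 5 every wild-type array was above every null array, against 769. In 14 of the 15 the 53,54 arrays lay above every null array and in 11 above all 20 other arrays. Among all 145 rises 121 lay above every null array, 71 above all 14 null, QM and 25,26 arrays and 47 above all 20. The same counts over all genes tested were 1423, 571 and 99. The rises were chosen for lying above wild type, so these are descriptions without a test.

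A total of 11 rises kept the call in each of the 9 fits that left out 1 array. They were Pamr1, Smtnl1, Bbs7, Shisal2b, Ada, Ppp1r36, Fabp3, Sh3yl1, Lrba, Cdcp1 and Coro7, and the last 5 of these were singled out by this count and not by size. Fabp3, a fatty-acid-binding protein of muscle, lay at 10.80, 10.81 and 9.79 in 53,54 against 9.08 to 9.91 (median 9.46) in wild type. The groups overlapped, yet the difference was 1.43 ± 0.12 with the block (limma, adjusted p = 6.41e-06) and was not called without it (adjusted p = 0.223). Cpz, a secreted carboxypeptidase and the largest called rise by value, lay at 8.91, 8.29 and 7.42 against 5.50 to 8.08 (median 5.92). It was 2.04 ± 0.38 higher (limma, adjusted p = 0.0132), with adjusted p = 0.137 and 0.184 without 53,54 replicates 2 and 3.

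The 8 non-overlapping falls were small, apart from that of Rab30. Rab30, a small GTPase of the Golgi, lay at 6.56, 7.31 and 8.31 in 53,54 and between 8.41 and 10.01 (median 9.05) in wild type. It fell by 2.04 ± 0.38 (limma, adjusted p = 0.0129), with adjusted p = 0.175 and 0.157 without 53,54 replicates 2 and 3. The null levels, 7.89 to 9.01, overlapped the mutant range only at its top. Exoc4, a subunit of the exocyst that tethers secretory vesicles, lay at 10.97, 10.95 and 11.08 against 11.42 to 11.62 (median 11.52). It fell by 0.59 ± 0.07 (limma, adjusted p = 0.000306), in all 9 fits and in 4 of its 5 probe sets. Its null levels were 9.40 to 9.78 and its 25,26 levels 9.84 to 10.12, so the 53,54 arrays lay between those and wild type. Dyrk3, a kinase that dissolves stress granules, lay at 8.99, 8.70 and 8.87 against 9.28 to 10.23 (median 9.53), with null levels of 8.11 to 8.63. It fell by 0.71 ± 0.15 (limma, adjusted p = 0.0306), with adjusted p = 0.215, 0.245 and 0.0576 without 53,54 replicates 2, 3 and 4 and 0.0505 without LSL-WT replicate 3. Hoatz, a gene of motile cilia, lay at 3.96, 3.91 and 4.05 against 4.27 to 5.38 (median 4.95), with null levels of 3.65 to 3.83. It passed the filter only through the wild-type arrays, in which it was high, so a difference was built into its being tested, and all mutant arrays lay under the filter level. The difference was -0.88 ± 0.16 (limma, adjusted p = 0.0129, or 0.0137 with no filter), with adjusted p = 0.059 and 0.226 without 53,54 replicates 2 and 3.

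In the other 4 non-overlapping falls the 3 mutant arrays lay below every null array. Qtrt2, a subunit of the enzyme that puts queuine into tRNA, lay at 7.30, 7.40 and 6.95 in 53,54, 7.69 to 8.12 (median 7.86) in wild type and 8.12 to 8.59 in null cells. It fell by 0.59 ± 0.13 (limma, adjusted p = 0.0399) and kept the call in 2 of 9 fits, those without LSL-WT replicates 2 and 3. Mcmbp, a binding partner of the MCM helicase, lay at 9.92, 9.55 and 9.96 against 9.97 to 10.72 (median 10.17), with null levels of 10.66 to 11.01. It fell by 0.45 ± 0.09 (limma, adjusted p = 0.0239), with adjusted p = 0.363 without the block and 0.177 and 0.244 without 53,54 replicates 2 and 3. Hip1, an adaptor of clathrin endocytosis, lay at 8.12, 8.01 and 8.02 against 8.18 to 8.58 (median 8.51), and LSL-WT replicate 1 alone gave the 8.18. It fell by 0.41 ± 0.09 (limma, adjusted p = 0.0347), with adjusted p = 0.132 without the block. Dock3, an exchange factor for Rac, lay at 4.48, 4.39 and 4.42 against 4.73 to 5.00 (median 4.81), around the filter level. It fell by 0.35 ± 0.07 (limma, adjusted p = 0.0302). Hip1 kept the call in 4 of 9 fits and Dock3 in 3, and both lost it without 53,54 replicates 2 and 3, LSL-WT replicate 3, and WT replicates 2 and 3; Dock3 also lost it without 53,54 replicate 4.

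**Figure D3:**
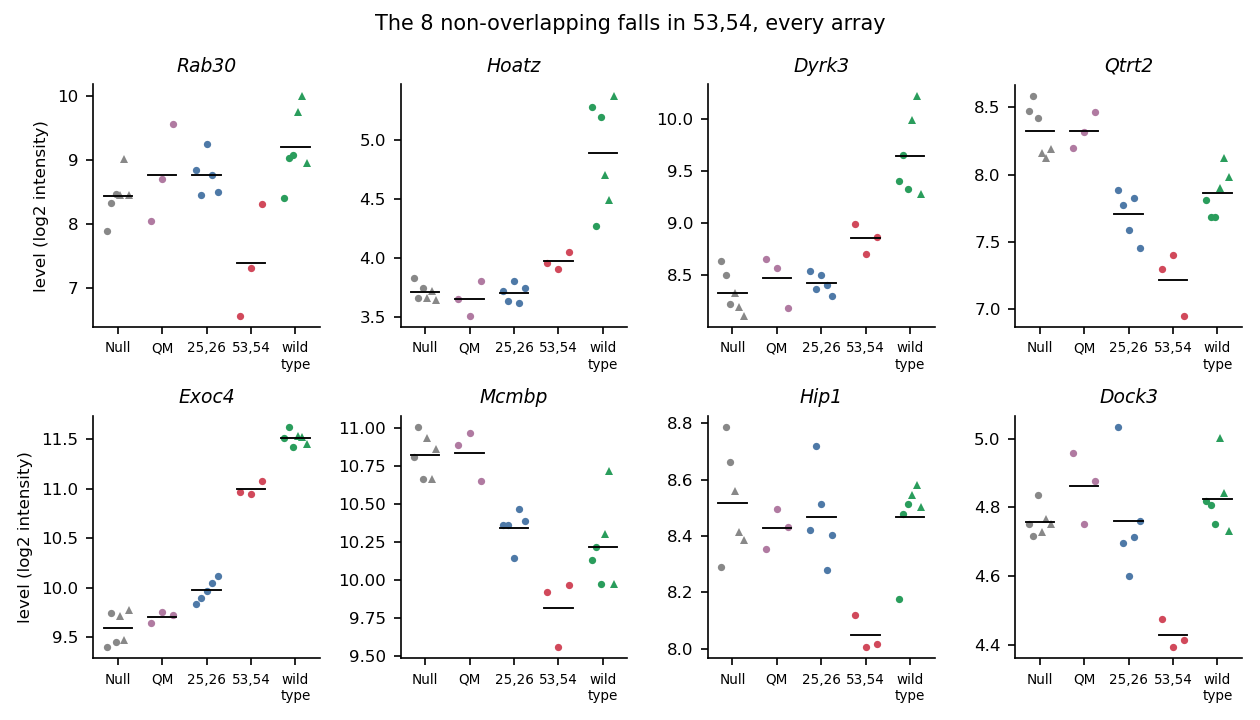
Each panel shows 1 of the 8 called falls whose groups did not overlap, with the level (log2 intensity) of every array by p53 status; bars are means, and triangles are the WT+Cre and Null+Cre arrays. In Exoc4 the 53,54 arrays lie between 25,26 and wild type, and in Rab30 they range from 6.56 to 8.31.

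None of the genes on the 26 lists used to describe pathways and cell types was called, in either direction. This includes the p53 targets of arrest and feedback, of which 0 of 23 were called, with 4 higher and 2 lower at an unadjusted p under 0.05 (background 6.49% and 5.61%). Their median difference was -0.04, with 8 positive, against -0.02 over all genes tested. It was 0.04 with 12 positive against WT alone and 0.06 with 14 positive without the arrays of number 2. Single members ran from -1.09 (Ptprv) to 0.67 (Ptp4a3), and the smallest adjusted p on the list was 0.0763 (limma). Cdkn1a, which encodes the cyclin-dependent kinase inhibitor p21, lay at 13.91, 13.42 and 13.22 in 53,54 and between 13.33 and 14.09 (median 13.43) in wild type. Its null levels were 10.25 to 11.75. The difference was -0.14 ± 0.16, with a 95% interval of -0.48 to 0.21 (limma, adjusted p = 0.795). Mdm2, the ubiquitin ligase that degrades p53, lay at 13.07, 13.01 and 12.81 against 12.60 to 13.65 (median 13.05), and its null levels were 10.27 to 10.44. Its interval was -0.37 to 0.30 around -0.04 (limma, adjusted p = 0.957), and 1 of its 3 probe sets had that sign. Psrc1, a microtubule-binding protein, lay at 11.31, 11.39 and 11.36 against 11.35 to 12.05 (median 11.49), far above its null levels of 4.99 to 6.34. Ccng1, the cyclin G1 gene, lay at 13.86, 14.00 and 14.01 against 13.88 to 14.20 (median 14.07), with null levels of 10.33 to 10.95. In these 4 genes the mutant and wild-type arrays overlapped and both lay above all null arrays.

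The p53 targets of apoptosis held no call, and how far they lay above 0 depended on the fit. Of 19 tested 13 were positive, 4 higher and 1 lower at an unadjusted p under 0.05, and the median was 0.12. Of all genes tested 42.8% were positive, and 6.49% were higher and 5.61% lower at that unadjusted p. Without the block 11 were positive with a median of 0.03, and against WT alone the median was 0.32. Fas, a death receptor, lay at 8.32, 9.12 and 8.56 in 53,54 and between 6.83 and 8.20 (median 7.17) in wild type, without overlap, and between 5.39 and 6.17 in null cells. The difference was 1.23 ± 0.30, with an interval of 0.60 to 1.86 (limma, adjusted p = 0.0605). It was called without the block (adjusted p = 0.0233), after quantile normalization (adjusted p = 0.0498), with strain as a covariate (adjusted p = 0.0475), and without LSL-WT replicate 2 (adjusted p = 0.00426) or WT replicate 1 (adjusted p = 0.0454). Apaf1, the scaffold of the apoptosome, lay at 10.58, 10.83 and 10.79 against 9.60 to 10.48 (median 10.10), again without overlap. Its difference was 0.55 ± 0.15 (limma, adjusted p = 0.0957). Pmaip1, a BH3-only killer also called Noxa, lay at 11.90, 12.07 and 10.18 against 10.96 to 11.99 (median 11.21), so that its arrays spread to both sides of wild type. Perp, a membrane protein, lay at 11.18, 11.98 and 10.91 against 10.61 to 11.47 (median 11.04).

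**Figure D4:**
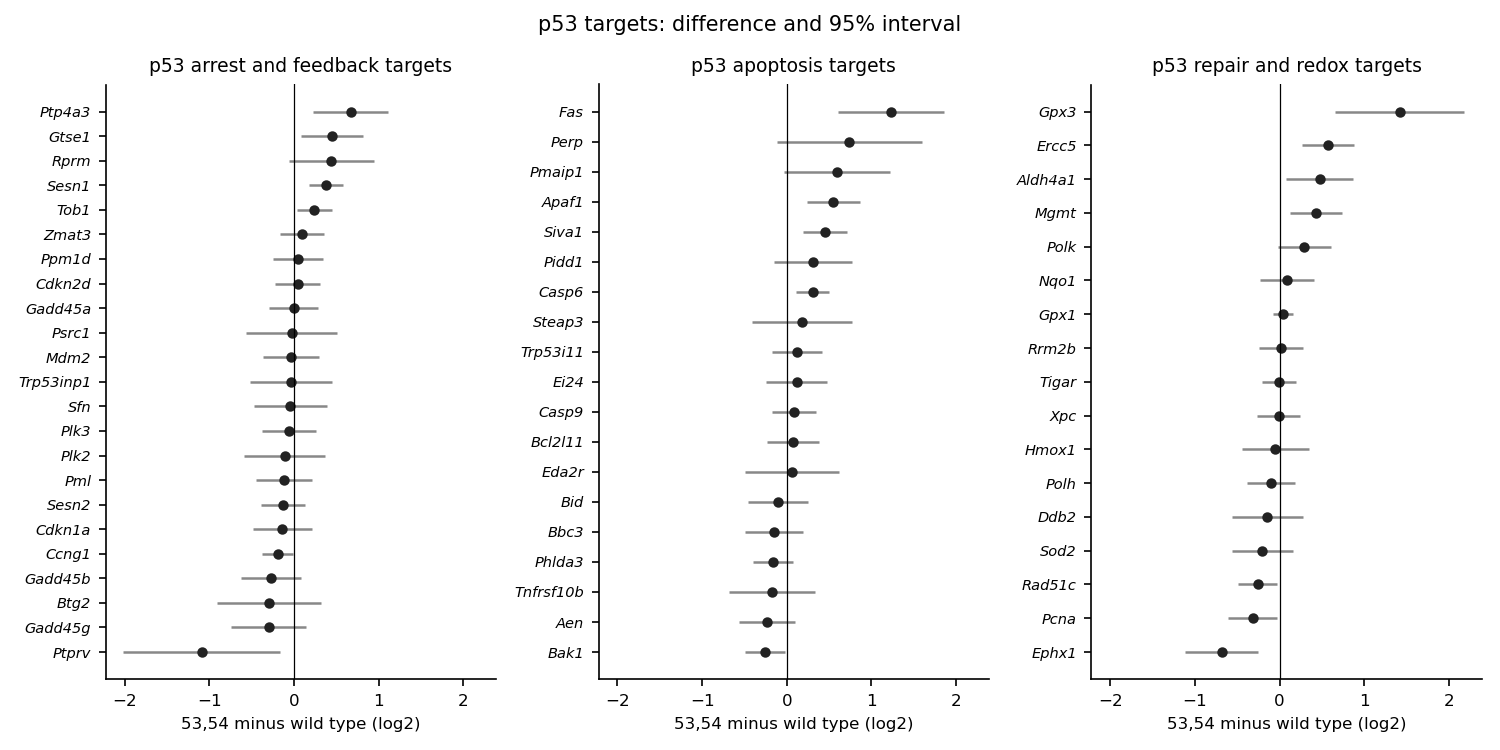
Points are differences of 53,54 from wild type (log2) with 95% intervals from the limma fit, for 23 arrest and feedback, 19 apoptosis and 17 repair and redox targets of p53. None was called; Fas, Gpx3 and Ercc5 lie to the right with intervals clear of 0, and Ptprv and Ephx1 to the left.

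Of the 17 targets of repair and redox control 8 were positive and 9 negative, with a median of -0.01. Against LSL-WT alone 12 were positive with a median of 0.12, and the median was -0.16 against WT alone and -0.13 without the block. At an unadjusted p under 0.05, 4 were higher and 3 lower, against 6.49% and 5.61% of all genes tested. Ercc5, an endonuclease of nucleotide excision repair, lay at 10.15, 10.07 and 9.90 in 53,54 against 9.26 to 9.87 (median 9.41), without overlap, and was 0.57 ± 0.14 higher (limma, adjusted p = 0.0743). Gpx3, a secreted glutathione peroxidase, lay at 12.11, 11.79 and 11.15 against 9.14 to 12.19 (median 9.99). LSL-WT replicate 2 gave the 12.19 and the other wild-type arrays reached 10.25. The difference was 1.42 ± 0.36 (limma, adjusted p = 0.076), with a call once strain was a covariate. Ephx1, the microsomal epoxide hydrolase, lay at 10.60, 11.23 and 10.65 against 10.80 to 12.48 (median 11.71), with a difference of -0.68 ± 0.21 (limma, adjusted p = 0.143). Of 16 negative regulators of p53, none was called, 6 were positive, and the median was -0.03. Rchy1, a further ubiquitin ligase of p53, had the largest of these, 0.46 (limma, adjusted p = 0.137).

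Targets recalled as kept by the 25,26 mutant lay slightly above wild type in 53,54. Some members of that list were picked from these same arrays, so it is not independent evidence of a direction. Of its 15 genes 14 were positive, and the median was 0.48, with none called. At an unadjusted p under 0.05, 8 were higher, against 6.49% of all genes tested. The median was 0.35 against LSL-WT alone and 0.53 against WT alone. Abhd4, a lipase, lay at 13.01, 13.19 and 13.14 against 12.37 to 12.86 (median 12.69), without overlap, with a difference of 0.48 ± 0.13 (limma, adjusted p = 0.103). Def6, an exchange factor for Rac, lay at 10.04, 9.72 and 9.63 against 8.87 to 9.82 (median 9.20), with a difference of 0.63 ± 0.17 (limma, adjusted p = 0.0907). Sulf2, an extracellular sulfatase, lay at 13.03, 13.59 and 13.24 against 12.53 to 13.15 (median 12.96) and 7.07 to 8.45 in null cells. Phlda3, an inhibitor of Akt, was the 1 negative member, at -0.16.

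Ptpn14 is a phosphatase that restrains the transcription coactivator YAP, and it was listed because published work on these cells made it a target of interest. It lay at 11.24, 11.45 and 11.13 in 53,54, between 10.51 and 11.28 (median 10.85) in wild type and between 8.99 and 9.62 in null cells. The difference was 0.41 ± 0.14, with an interval of 0.12 to 0.70 (limma, adjusted p = 0.213). Of the 26 genes of Ptpn14 and YAP targets 18 were negative, with a median of -0.07, and none was called. Ccn2, a secreted matrix protein and common YAP readout, lay at 11.30, 11.92 and 11.24 against 11.50 to 13.19 (median 12.50), with a difference of -0.85 ± 0.33 (limma, adjusted p = 0.285). Amotl2, an angiomotin that YAP induces, lay at 9.88, 9.80 and 9.93 against 9.98 to 10.77 (median 10.41), without overlap, at -0.56 ± 0.20 (limma, adjusted p = 0.248).

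Nearly all cell-cycle genes had a negative difference from wild type in the fit, again without a call. Of 38 genes of mitosis and G2/M 36 were negative, against 8727 of all 15266 genes tested. Their median was -0.31, and 1 was lower and 1 higher at an unadjusted p under 0.05. Genes of 1 list can move together, so these counts are not of independent genes. Of the 36 replication and G1/S genes 34 were negative, with a median of -0.29. At an unadjusted p under 0.05, 12 of them were lower, against 5.61% of all genes tested. Without the block, 4 of the 36 had an unadjusted limma p under 0.05, counting both directions. Of the mitosis genes 36 were also negative after quantile normalization and after median centring. The mean of the mitosis genes was 8.72, 8.51 and 9.60 in 53,54, and 9.59, 8.17 and 9.52 in LSL-WT and 9.65, 8.60 and 9.62 in WT. The mutant arrays therefore lay within the wild-type range, and the arrays of number 2 were the low ones in both LSL-WT and WT. By title number, 53,54 replicate 3 at 8.51 lay below LSL-WT and WT replicate 3 at 9.52 and 9.62. By contrast, 53,54 replicate 2 at 8.72 lay above LSL-WT and WT replicate 2 at 8.17 and 8.60. No wild-type array has the number of 53,54 replicate 4. In the mean of this list the negative sign was thus not shared by every mutant array. All 9 compared arrays lay below the null range of 10.54 to 10.85. Without the arrays of number 2 the mitosis median was -0.70 and the replication median -0.41. These medians were smaller in size against LSL-WT alone, at -0.19 and -0.17, and stood at -0.44 and -0.43 against WT alone. The replication means were 8.57, 8.54 and 9.29 in 53,54, with a wild-type range of 8.33 to 9.42. The LSL-WT and WT replication means were 8.33 and 8.89 at number 2 and 9.17 and 9.22 at number 3. Pcna, the sliding clamp of DNA polymerases, lay at 12.11, 12.01 and 12.48 against 11.87 to 12.93 (median 12.61), at -0.32 ± 0.14 (limma, adjusted p = 0.354).

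**Figure D5:**
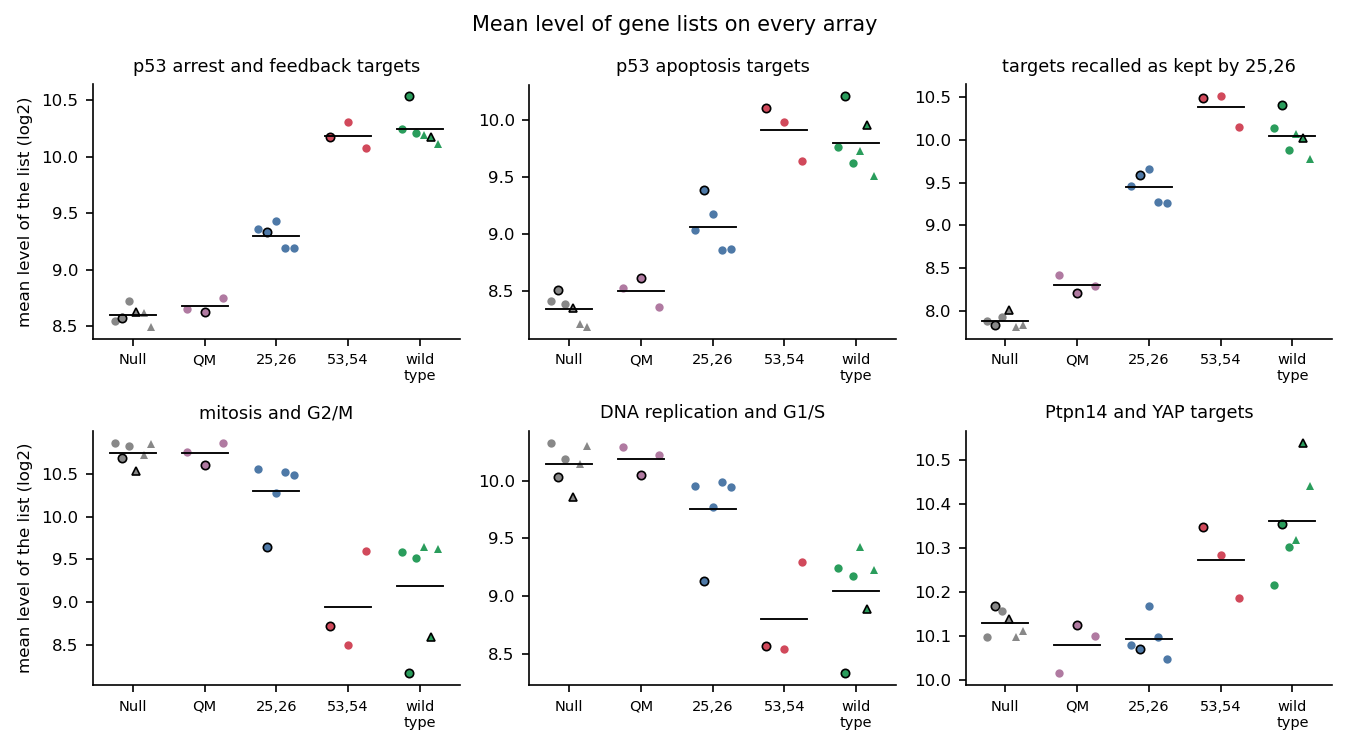
Each point is the mean level (log2 intensity) of a gene list on 1 array, by p53 status; bars are means, triangles are the WT+Cre and Null+Cre arrays, and black edges mark arrays with title number 2. In the p53 target lists 53,54 and wild type overlap above the null arrays, and in the mitosis list the arrays of number 2 are the lowest of LSL-WT and of WT.

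LSL-WT replicate 2 bore on these lists more than any other single array. Without it, 28 of the 472 listed genes tested were called, 20 higher (4.24%, against 2.32% of all genes) and 8 lower (1.69%, against 0.485%). Without any other 1 of the 9 arrays at most 1 of the 472 was called. The p53 targets among the 20 were Fas at 1.46, Gpx3 at 1.74 (adjusted p = 0.00191), Ercc5 at 0.68 (adjusted p = 0.00525), Apaf1 at 0.66 (adjusted p = 0.00801), Gtse1, Sesn1, Siva1 and Ptp4a3, all by limma's adjusted p. Ptpn14 was 0.52 higher (limma, adjusted p = 0.0114). Abhd4, Def6, Kank3 and Sidt2 were also called, from the list of targets kept by 25,26, which was partly picked from these same arrays. The remaining higher calls were Ulk1 and Tpp1 of autophagy and lysosomes, the cell-cycle inhibitor Cdkn1c at 0.73, the stress factor Ddit3 at 0.64, the enolase Eno2 at 1.15, the adhesion molecule Icam1 at 1.35 and the macrophage marker Cd14 at 0.95. With all arrays these last 5 stood at 0.51, 0.56, 0.93, 1.08 and 0.79. Ephx1 was called lower at -0.82 (adjusted p = 0.0251). The other 7 lower genes belonged to DNA replication: Mcm2, Mcm3, Mcm4 and Mcm5 of the MCM helicase, Pcna, Pola1 and Rpa2. Pola1, a subunit of DNA polymerase alpha, stood at -0.83 (adjusted p = 0.00325). LSL-WT replicate 2 had the lowest wild-type level of each of these 7 genes, and the highest of Fas, Gpx3, Ercc5 and Apaf1. It was singled out after its values were seen. Leaving out an extreme array widens such differences, so the shares of listed genes called without it are a description and not a test. Cdkn1a stayed uncalled without it, at -0.11 (adjusted p = 0.816). Against LSL-WT alone none of the 472 was called, and against WT alone 72 were, 41 higher (8.69%, against 4.36% of all genes) and 31 lower (6.57%, against 4.45%).

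The other lists held no called gene when all arrays were used. The amino-acid and unfolded protein stress list had 5 of 20 higher and 0 lower at an unadjusted p under 0.05, with a median of 0.08. The 24 autophagy and mTOR targets of p53 had 6 higher and 1 lower at that p, with a median of 0.06. Of all genes tested 6.49% were higher and 5.61% lower at that p. Ulk1, the kinase that starts autophagy, stood at 0.47 (limma, adjusted p = 0.132), and it was called at 0.60 without LSL-WT replicate 2 (adjusted p = 0.00282). Of 20 genes of ribosome biogenesis 18 were negative and 7 lower at an unadjusted p under 0.05, with a median of -0.18. Cholesterol synthesis had 16 of 18 positive with a median of 0.15, which was 0.00 against LSL-WT alone and -0.06 without the arrays of number 2. Interferon response had a median of 0.33 over 22 genes, with 0 at an unadjusted limma p under 0.05, and the median was 0.18 without the block and 0.03 without the arrays of number 2. The secreted factors of senescence had a median of -0.09 over 35 genes, which was 0.06 without the block. Extracellular matrix, contractile genes, Ras-MAPK feedback and glycolysis had medians of -0.04, -0.11, 0.02 and -0.05. The 7 cyclin-dependent kinase inhibitors had a median of 0.15, and the largest was Cdkn2a, the Ink4a and Arf locus, which lay at 11.60, 11.92 and 12.00 against 10.25 to 11.73 (median 10.75). Its difference was 0.72 ± 0.29 (limma, adjusted p = 0.319). Map2, a neuronal microtubule protein on the neural list, lay at 4.38, 6.06 and 7.51 against 6.90 to 8.54 (median 8.09), at -1.98 ± 0.64 (limma, adjusted p = 0.184), and was called only without 53,54 replicate 4 (adjusted p = 0.0435).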

How the data were processed

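RNA was hybridised to 23 oligonucleotide arrays, 1 per sample. Per the submitters' processing notes the authors used RMA, and the deposited value of a probe set is an intensity on a linear scale; the version of RMA is not given in the sources used here. Values were taken to log2. Of 45101 probe sets, 64 controls, 932 with several gene symbols and 9160 not listed in the annotation were left out. The remaining 34945 gave 18193 genes, each with its probe set of the highest mean. Genes with at least 3 arrays above the 30th percentile (log2 4.79) were tested, 15266 in all.

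Groups followed the titles. limma 3.58.1 in R 4.3.3 was fitted to all 23 arrays with means for wild type, null, 25,26, 53,54 and QM and the title number as a block (14 residual degrees of freedom), and was tested on simulated data. The labels do not say what the number marks. Deviations from the group means correlated at 0.16 to 0.577 (median 0.353) in the 4 same-number pairs of 53,54 and wild type. In 14 other pairs they correlated at -0.518 to 0.42 (median -0.09). For 53,54 replicate 4, without a wild-type array of its number, they ran from -0.408 (WT replicate 2) to 0.42 (LSL-WT replicate 3). The pairs share arrays, so these values do not settle what the number marks. The number of arrays limits the precision.

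The comparison, the gene lists and the rules were chosen with earlier results of these data known. Genes named were the 15 largest rises and falls past the threshold without overlap, up to 4 genes per list by the moderated statistic, the members of the p53 target lists and of the negative regulators, and Ptpn14. Exceptions are marked. Promoters are RefSeq's, on GRCm38.p6. Alternatives changed the filter, the probe-set rule, the scaling, the covariates, the block, the arrays in the fit, the variance and the weights. Probe positions, the p53 and H-Ras transcripts and sex-linked genes as results are not analysed here.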

Additional observations from a re-analysis of the deposited data

Results flagged for a closer look

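Among the 180 genes named by rule, 12 had 1 wild-type array far from the other 5, with the gap to its nearest neighbour over the whole range of the 6 arrays above Dixon's 95% critical value for 6 values. Chance flags about 1 gene in 20. LSL-WT replicate 2 was the array in 8 of them. It was the highest in Cyyr1 (0.636, at 8.42 against 6.46 to 7.17), Ptprv (0.721, at 10.22 against 8.41 to 8.92), Psrc1 (0.684, at 12.05 against 11.35 to 11.57) and Gpx3 (0.638, at 12.19 against 9.14 to 10.25). It was the lowest in the replication genes Pcna (0.626, at 11.87 against 12.53 to 12.93), Mcm2 (0.706, at 9.84 against 10.44 to 10.69) and Mcm4 (0.649, at 10.69 against 11.13 to 11.37), and in Dkc1, a gene of ribosome biogenesis (0.723, at 10.81 against 11.12 to 11.24). LSL-WT replicate 1 was the lowest in Hip1 (0.748, at 8.18 against 8.48 to 8.58) and in Topors (0.672, at 10.49 against 10.73 to 10.85). LSL-WT replicate 3 was the lowest in Myod1 (0.648, at 5.20 against 5.40 to 5.51). WT replicate 2 was the highest in Cdh5, the endothelial cadherin (0.88, at 6.88 against 5.45 to 5.62).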

How the results depend on the processing

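With 145 genes higher and 13 lower, no filter, quantile normalization, median centring, strain or Xist as a covariate, the number as a random block, trended variances and all probe sets kept both counts within 1.5 times. Similar counts did not mean the same genes. With strain as a covariate the calls shared 111 of the 145 rises and 6 of the 13 falls. The random block shared 119 and 11. No replicate block gave 49 and 7. The compared arrays alone gave 0 and 0 with the block, and 3 and 0 without it. A mean above the median of all genes gave 90 rises over 9096 genes tested, averaging the probe sets of each gene 8 falls, and leaving out all arrays of number 2 gave 87 rises. The 7 title groups gave 291 and 112, array weights 360 and 66, LSL-WT alone as wild type 31 and 7, and WT alone 665 and 679. Leaving out 1 of the 9 arrays gave 15 to 354 rises and 2 to 74 falls. Some of these settings use fewer genes or arrays and others use all of them. The cause of the changes was not tested. Over the 26 settings in which they could be computed, the 23 named calls kept sign and call in 432 of 582 cases and sign alone in 150. The 157 named genes without a call stayed uncalled in 3931 of 4057 cases, in some with the other sign, and gained a call in 126. None of the 23 named calls changed sign in these settings. Against LSL-WT alone 11 of the 23 lost the call.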
